A study of Mus musculus with 8 samples.

Results

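The regions described here carried a C/EBPα peak in both wild-type (WT) libraries and in none of the 4 libraries from the enhancer variants DC and DE. They were found by joining the peaks of 6 anti-C/EBPα lists that overlapped by at least 1 bp and keeping autosomal regions with that pattern of calls. The rule kept 531 regions, which is 1.73% of the 30690 autosomal regions called in both WT libraries, of 259446 regions in all. The members were chosen by the authors' peak calls in these 6 libraries, so their absence from DC and DE is a description and not a result. The same rule turned around kept 1468 regions for DC (4.13% of 35516) and 280 for DE (0.855% of 32767).

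The binding of C/EBPα was profiled by CUT&RUN, in which a nuclease held by an antibody cuts out the DNA around a bound protein. The cells were mouse bone marrow progenitors gated as Lin- KIThi-int FLT3+, the population that holds the precursors of monocytes, neutrophils and dendritic cells. The 3 genotypes (WT, DC and DE) differed at the Zeb2 -165-kb enhancer and had 2 libraries each, 1 in each of 2 batches, with replicate 1 from batch 1 and replicate 2 from batch 2. What sequence DC and DE change, how many animals gave each library and their age are not given in the labels, so p-values between libraries measure only the spread between these libraries, and whether fewer cells were bound or each cell was bound less cannot be told apart. The 2 IgG libraries of WT cells were not analysed here. DC replicate 1 stood apart, with 169943 peaks against 50221 to 82080 in the other 5 libraries. The count of members and the fits of regions near members are also given without it. The other descriptions of members hold only for those chosen with it.

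C/EBPα is a basic leucine zipper factor that pairs with itself or with other C/EBP and ATF proteins and opens the way from multipotent progenitors to granulocytes and monocytes. C/EBP factors are known to bind the enhancer studied here, which drives Zeb2, a zinc-finger repressor that steers dendritic cell fate. A peak in CUT&RUN is a place where more fragments piled up than the local background predicts. Whether a weak site is called therefore depends on the depth and background of each library as well as on binding.

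Most members lay outside the promoter windows whose sequence was at hand, which run from 250 bases before to 50 bases after a gene start (RefSeq, GRCm38.p6). In 31 of the 531 the summit in WT, the position with the most fragments, fell in such a window. The 250 bases before the start are given for 4 of the 31, on the strand of the gene. Chmp3 and Wnt6 are shown because the lower of their 2 scaled WT pileups was the highest among the 31, and Gpr183 and Serp2 because they alone held the C/EBP letters. Capitals mark GC boxes on either strand (GGGCGG or CCGCCC) in Wnt6 and the C/EBP letters TTGCNNAA in Gpr183 and Serp2, and Chmp3 has neither.
Chmp3, chr6:71543602-71543851, plus strand: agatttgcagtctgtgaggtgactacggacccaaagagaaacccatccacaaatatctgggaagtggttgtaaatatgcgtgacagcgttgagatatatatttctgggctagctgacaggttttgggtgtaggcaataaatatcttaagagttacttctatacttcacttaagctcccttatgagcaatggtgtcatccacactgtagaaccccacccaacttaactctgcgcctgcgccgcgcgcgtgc
Wnt6, chr1:74771642-74771891, plus strand: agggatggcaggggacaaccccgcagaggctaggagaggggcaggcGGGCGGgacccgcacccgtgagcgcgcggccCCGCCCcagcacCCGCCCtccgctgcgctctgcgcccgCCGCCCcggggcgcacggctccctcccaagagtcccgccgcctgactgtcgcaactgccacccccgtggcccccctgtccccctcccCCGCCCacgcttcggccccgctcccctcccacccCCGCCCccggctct
Gpr183, chr14:121965194-121965443, minus strand: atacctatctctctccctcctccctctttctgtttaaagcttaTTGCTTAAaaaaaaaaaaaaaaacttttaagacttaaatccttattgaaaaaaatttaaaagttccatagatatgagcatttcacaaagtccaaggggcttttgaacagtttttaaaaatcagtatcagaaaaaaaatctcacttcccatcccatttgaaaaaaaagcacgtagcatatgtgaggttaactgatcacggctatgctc
Serp2, chr14:76556917-76557166, minus strand: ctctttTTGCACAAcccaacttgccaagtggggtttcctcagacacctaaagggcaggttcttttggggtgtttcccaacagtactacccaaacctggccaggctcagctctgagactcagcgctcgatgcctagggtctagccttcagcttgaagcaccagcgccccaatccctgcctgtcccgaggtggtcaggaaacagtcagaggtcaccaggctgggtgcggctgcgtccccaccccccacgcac

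Within 100 bp of the summit, TTGCNNAA on either strand was found in 0 of the 31 promoters, which allows a share of up to 9.68%. Of the 3697 promoters with a summit of a region called in both WT libraries, 9.49% held it, so a lack of these letters was not detectable with 31 members. The matches of Gpr183 and Serp2 lay 124 and 134 bp from the summit. Over the whole 250 bases these 2 matches came to 6.45% of the 31, beside 9.19% of all 20084 promoters in the table. The GC box, the site of SP and KLF factors, stood within 100 bp of the summit in 21 of 31 (67.7%), beside 58.5% of the WT promoters. The ETS letters GAGGAA, which PU.1 can read, were in 6 of 31 (19.4%, beside 17.4%), and the E box CANNTG, which includes the sites of E proteins, in 9 of 31 (29.0%, beside 43.4%). The narrower E box CACCTG, a core that ZEB factors read and that CANNTG includes, was in 2 of 31 (6.45%, beside 7.52%). The RUNX letters TGTGGT and the AP-1 letters TGANTCA were in 0 of 31, beside 8.79% and 3.54%. These are counts of letters and not sites of binding. The bases before the start had a median GC content of 60.8% in the 31 members, from 32.0% at Gpr183 to 84.8% at Pacs2, beside 56.0% over all promoters.

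The members were weak in WT. The pileup, which counts the fragments that cover a summit, ranged from 6 to 147 in WT replicate 1 with a median of 11, and from 5 to 102 in WT replicate 2 with a median of 9. Regions called in both WT libraries had a median of 27 in each. On a scale set by the median over the 23028 regions called in all 6 libraries, the lower of the 2 WT values had a median of 8.40 fragments in the members and 22.2 in all WT regions, a ratio of 0.378. In terms of the authors' fold over local background the medians were 4.45 and 4.73 in the members and 9.16 and 8.71 in all WT regions. The median width was 196 bp, beside 390 bp. The local background was at the lowest value of the library in 298 members in WT replicate 1 and in 296 in WT replicate 2.

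**Figure D1:**
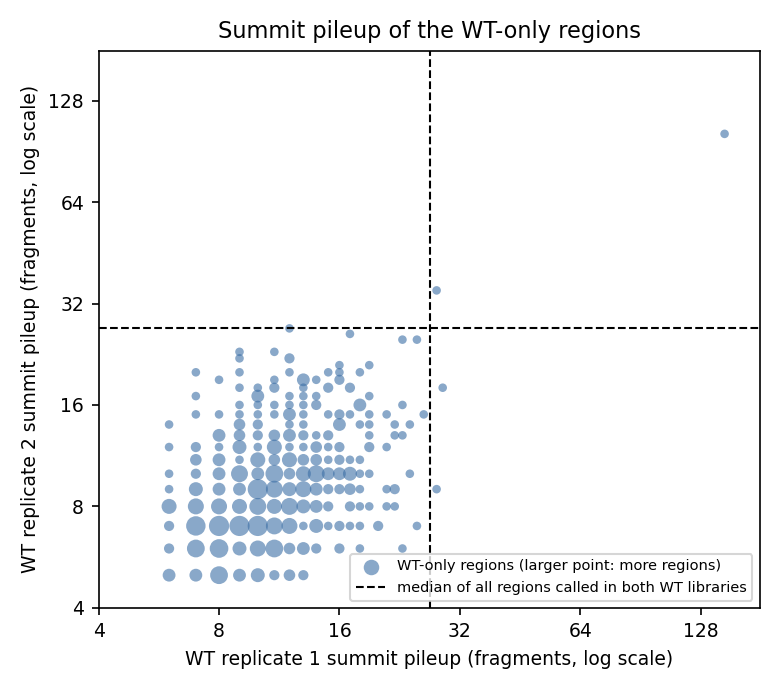
Summit pileup in fragments of the 531 regions called only in WT, WT replicate 1 on the horizontal and WT replicate 2 on the vertical axis (both log scales). Larger points stand for more regions at the same whole numbers, and the dashed lines mark the median of 27 over all regions called in both WT libraries. Most points lie below both lines, and the region near Tmem125 stands alone at 147 and 102.

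The share of WT regions that were called only in WT fell as the WT pileup rose. Where the lower scaled WT pileup was under 8 fragments, 198 of 971 regions (20.4%, 95% Wilson interval 18.0 to 23.0) had no DC or DE call. The share was 5.72% from 8 to 12 fragments, 1.36% from 12 to 16 and 0.270% from 16 to 24. Between 24 and 48 fragments 2 of 8114 regions had none, and at 48 or more 1 of 6214. The pileup was that of the WT libraries and the missing calls were those of the DC and DE libraries. Why the share fell was not tested, and the order is given as a description. The intervals cover counting error only.

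**Figure D2:**
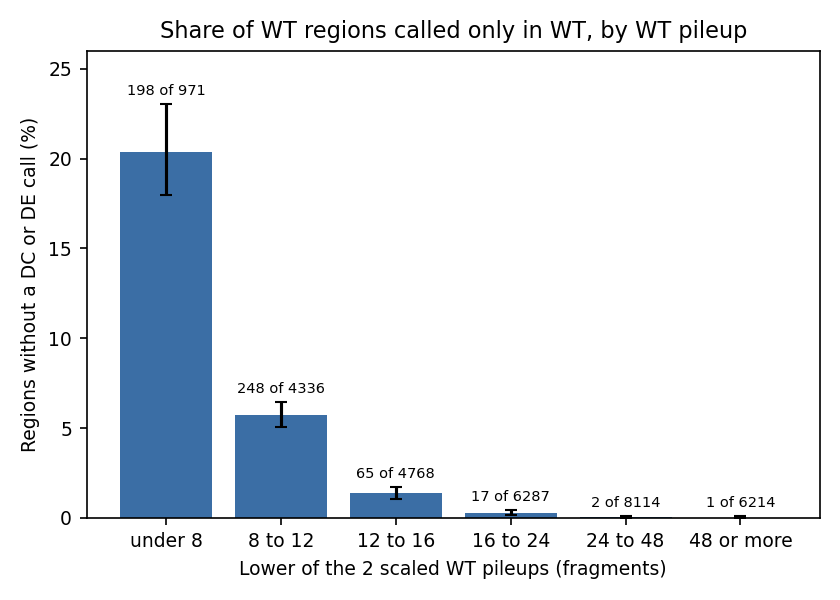
Percentage of autosomal regions called in both WT libraries that had no call in any DC or DE library, by the lower of the 2 scaled WT summit pileups in fragments. Bars give the share, error bars the 95% Wilson interval, and the numbers the regions called only in WT of all regions in the bin. The share goes from 20.4% in the lowest bin to 0.0161% in the highest.

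The count of members rested on DC replicate 1 above the other variant libraries. That library lacked a call at 4.35% of the WT regions, while DC replicate 2 lacked one at 17.0%, DE replicate 1 at 13.4% and DE replicate 2 at 9.23%. Without DC replicate 1 the rule kept 1282 regions. Of the 1145 WT regions with a call in 1 variant library, 751 had it in DC replicate 1, 62 in DC replicate 2, 110 in DE replicate 1 and 222 in DE replicate 2. The read totals are unknown. The regions just outside the rule with the highest WT pileup lay in Hecw2 (37 and 35 fragments in WT, 62 in DC replicate 1), near the cytokine gene Tgfb1 (36 and 49 in WT, 22 in DE replicate 2) and in the membrane skeleton gene Epb41 (37 and 31 in WT, 26 in DC replicate 1). Regions near Gm15319 (42 and 30) and Duxf3 (47 and 29) had 40 fragments each in DE replicate 1. Inside the rule, the strongest members were those near Tmem125 (147 and 102) and in Map2k3 (28 and 35), and the weakest had 6 or 5 fragments, the fewest that can be called.

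A missing call sets an upper limit on the pileup and not a value of 0. At the lowest background of each library a call needed 5 fragments in DC replicate 1, 4 in DC replicate 2, 7 in DE replicate 1 and 4 in DE replicate 2. At the background seen in WT, taken relative to the lowest of its library, the fewest fragments gave a lower bound for the scaled ratio of WT to variant within each batch. The median bound over the 531 members was 3.60-fold in DC replicate 1, 1.88-fold in DC replicate 2, 1.81-fold in DE replicate 1 and 2.55-fold in DE replicate 2. The smallest of the 4 bounds was over 1 in 521 members (98.1%) and over 2 in 140. With the lower end of the 95% counting interval of the WT pileup in place of the pileup itself, it was over 1 in 107. The WT calls and missing variant calls that chose the members largely set these bounds, so they are a description. The interval treats fragments as independent and covers the counting error of the WT pileup only. Counting error in the variant library is left out, so the number over 1 with the interval is an upper figure. These bounds assume the same relative background in WT and variants, and they move with the scaling. Scaled by the lowest background of each library in place of shared regions, 336 members (63.3%) had a smallest bound over 1, 21 had one over 2, and 33 had one over 1 with the counting interval.

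**Figure D3:**
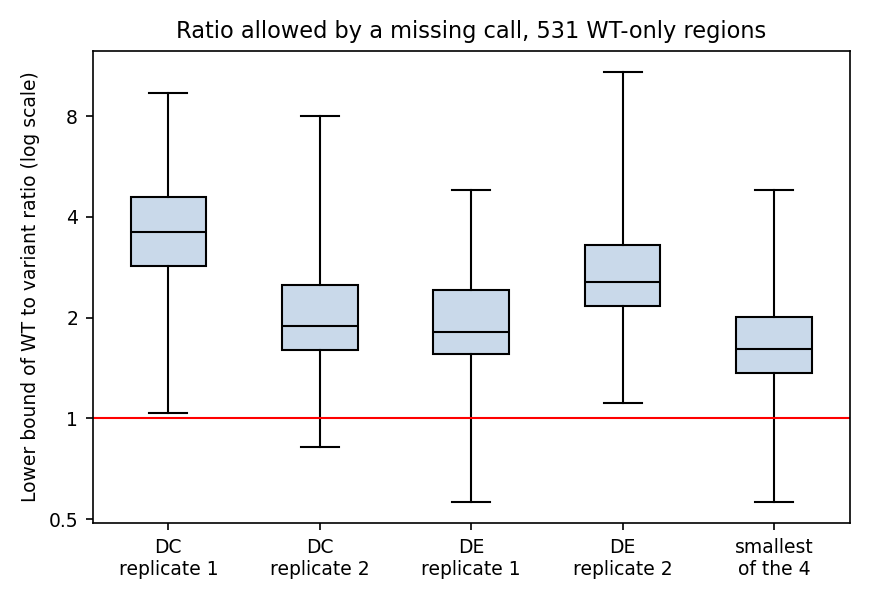
Lower bound of the ratio of WT to variant scaled pileup in the same batch (log scale) for the 531 regions, given the fewest fragments that would have been called in each variant library. Boxes span the quartiles with the median as a line, whiskers run from the lowest to the highest value, and the red line marks a ratio of 1. The median is highest in DC replicate 1, at 3.60, and the smallest of the 4 bounds has a median of 1.61.

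Calls in the batch that did not choose a region gave a reading that the choice had not used. In batch 1, 40357 autosomal regions were called in WT and in neither variant. In batch 2, 950 of them (2.35%, 95% interval 2.21 to 2.51) were called in WT, 420 (1.04%, 0.946 to 1.14) in DC and 718 (1.78%, 1.65 to 1.91) in DE. Over all 215039 regions of batch 1 the shares called in batch 2 were 18.5% (WT), 17.0% (DC) and 19.7% (DE). The WT library of batch 2 thus called more of the WT-only regions of batch 1 than either variant library did, though few in all. In the reverse reading, 17009 regions were called only in WT in batch 2. In batch 1, 2008 of them (11.8%) were called in WT, 3613 (21.2%) in DC and 1394 (8.20%) in DE, beside 40.7%, 56.2% and 41.7% over all 85697 regions of batch 2. Here the DC library, which has the most peaks of all 6, called more of them than the WT library did, and the difference between WT and the higher variant changed sign between the batches. Regions are not replicates, and these shares rest on 1 library each.

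Some of those regions were called in both WT and a variant in the other batch, and there the scaled pileups can be compared. For regions chosen in batch 1, the median log2 difference of variant from WT in batch 2 was -0.15 in DC (197 regions, beside -0.01 over all regions called in both) and -0.41 in DE (357 regions, beside -0.08). For regions chosen in batch 2, it was -0.52 in DC (1367 regions, beside -0.12) and -0.27 in DE (726 regions, beside -0.02) in batch 1. Each median was below that of all regions called in both libraries. DC and DE were each set against the same WT library within a batch. The regions compared had to be called in both libraries, so regions that lost their call are not among them. The scaled pileup needed for a call also differed between libraries, and the regions set beside were not matched for strength. Whether these limits set the medians was not tested, so no loss of binding is read from them.

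**Figure D4:**
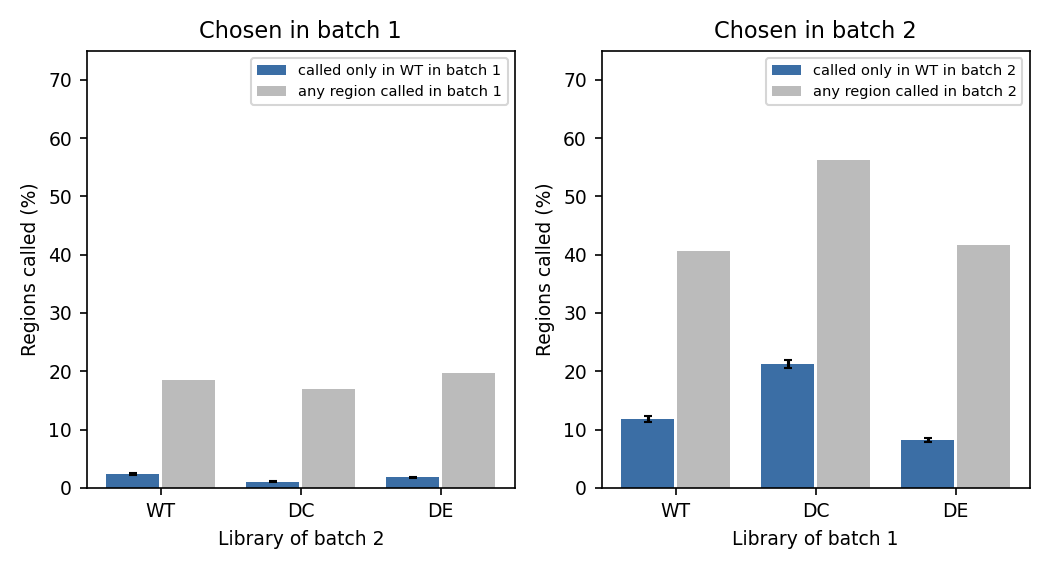
Percentage of regions called in each library of the batch that was not used for the choice, for regions called only in WT in batch 1 (left) or in batch 2 (right), beside all regions of the choosing batch (grey). Bars are shares and error bars 95% Wilson intervals. On the left WT is highest among the blue bars at 2.35%, and on the right DC is highest at 21.2%.

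The members with the highest WT pileup lay in genes of many kinds. The strongest, at chr4:118547245-118547400 (mm10) and 2.39 kb from Tmem125, had 147 and 102 fragments over a local background of 71.1 and 56.4, so its fold was 2.05 and 1.79. Its high pileup stood on a high background, and its smallest bound was 1.48-fold. Map2k3, whose kinase activates p38, held a region in the gene at chr11:60933605-60933868 with 28 and 35 fragments over a background of 2.30 and 1.14. Its smallest bound, 4.83-fold, was the highest of all members, with a call limit of 6, 4, 8 and 4 fragments in DC replicates 1 and 2 and DE replicates 1 and 2. A region in Gnptab, which encodes the enzyme that tags lysosomal proteins with mannose-6-phosphate, had 23 and 25 fragments (chr10:88383505-88383748; bound 4.63-fold). Ell, an elongation factor of RNA polymerase II, had 25 in both libraries (chr8:70560131-70560383; bound 3.77-fold). These 3 were thus among the members farthest above the call limits of the variant libraries.

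The members that followed in strength lay in or next to genes of unrelated roles. Cracr2b, a regulator of calcium entry, had 29 and 18 fragments (chr7:141460688-141460953). Uba7, the enzyme that activates the ubiquitin-like ISG15, had 19 and 21 (chr9:107983522-107983869). Chmp3, a subunit of ESCRT-III, had 18 and 20 at its start (chr6:71543780-71544070). Their smallest bounds were 3.08-fold, 1.91-fold and 3.11-fold, so Uba7 was nearest to its call limit. Wnt6, a secreted Wnt ligand, had 17 and 26 fragments across its start (chr1:74771476-74772027) and a bound of 3.42-fold. A stronger region in Wnt6, 0.902 kb from this member, was called in all 6 libraries. Its scaled pileups ran from 75.2 (DC replicate 2) to 219 (WT replicate 1). Cyfip2, a subunit of the WAVE complex, had 19 and 17 (chr11:46265540-46265655) and Sdccag8, a centrosomal protein, 23 and 16. Over all members the 2 scaled WT values differed by a median of 1.35-fold, beside 1.40-fold in all WT regions. Their Spearman rank correlation was 0.36 in the members, beside 0.77 in all WT regions. The rest of the 15 strongest were 1810062G17Rik (13.3 kb away), Eri1, Snrpe (8.04 kb away), Gfra3 and Zfp532, with 17 to 18 fragments in WT replicate 1 and 16 to 18 in WT replicate 2. Of these, Snrpe, of the spliceosome, had the lowest bound, 1.36-fold.

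Other members were named because their smallest bound was among the 10 largest. They lay in Map3k1, a kinase upstream of JNK (17 and 15 fragments, chr13:111792177-111792430), in Lpcat2, which makes platelet-activating factor in myeloid cells (16 and 15, chr8:92856285-92856653), in Fbln1, an extracellular matrix protein (19 and 14, chr15:85245331-85245544), in the potassium channel gene Kcng2 (16 and 15) and 74.3 kb from Rassf9 (19 and 15, chr10:102624029-102624258). The Lpcat2 region lay 90 bp from a peak of DC replicate 1 and over 1 kb from the nearest peak of the other 3 variant libraries. For that region the rule thus turned on where a peak ended.

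Few of the listed genes, which include housekeeping and non-haematopoietic genes, had a member nearby. Within 10 kb, 487 of 20661 autosomal protein-coding genes (2.36%) had a member, and 11 of 226 genes on 14 lists did (4.87%). Counting only genes with some WT region as near, 6.21% of 177 listed genes had a member, beside 4.02% of 12125 genes. Listed genes thus had the higher share either way, and the difference was not tested. Over all genes the share was 1.59% within 1 kb and 5.22% within 50 kb. Of the 30 neutrophil and monocyte genes, all of which had some region called in both WT libraries, 1 had a member. It was Csf1r, the receptor for the growth factor of macrophages, with 13 and 16 fragments in the gene and a smallest bound of 2.62-fold. Of 20 stem and progenitor genes, all with some WT region, 3 had a member: Runx1 (13 and 10 fragments, chr16:92783706-92783891), Tal1 (10 and 13, 3.68 kb away, chr4:115052698-115052887) and Fli1 (7 and 20, chr9:32541369-32541555). The Fli1 region had a bound of 0.650-fold, so its missing calls allow a variant level above that of WT. Runx1 and Tal1 had bounds of 2.28-fold and 2.01-fold. Sites shared by all 6 libraries lay 0.865 kb from the Fli1 member, 0.592 kb from that of Runx1 and 3.68 kb from that of Tal1. Their scaled pileups ran from 38.9 to 64.5, from 8.40 to 19.2 and from 29.3 to 72.7. A member thus describes 1 region and not all binding at its gene.

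Among dendritic cell genes, 0 of 15 cDC1 genes had a member, 2 of 14 cDC2 genes did (Zeb2 and Itgax) and 3 of 14 pDC genes did (Siglech, Bcl11a and Zeb2). Itgax, the integrin CD11c of dendritic cells, held 19 and 12 fragments in the gene (chr7:128138457-128138613; bound 2.74-fold). Bcl11a, a zinc-finger factor of pDC and lymphoid cells, had 9 and 12 at 0.505 kb from the nearer boundary of the gene (chr11:24075990-24076245), with a peak of DE replicate 1 at 17 bp. Siglech, a surface lectin of pDC, had 6 and 8 (chr7:55776595-55776902; bound 1.21-fold). The single member at Zeb2 spanned the gene start (chr2:45117195-45117583) with 11 and 6 fragments and a bound of 1.37-fold, among the weaker members. A region in Zeb2 at 4.79 kb from it was called in all 6 libraries, with scaled pileups from 17.9 to 34.6. Itgax likewise held a shared region, 4.42 kb from its member, with scaled pileups from 66.0 to 135. Zeb2 also stands on the list of E protein and ID genes (1 of 9).

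The remaining lists gave 1 member or none. Ccl9, a chemokine of myeloid cells, was 1 of 28 inflammatory genes (11 and 12 fragments, 3.45 kb away, chr11:83569358-83569595). Atf3, a stress-induced partner of C/EBP factors, was 1 of 18 C/EBP and partner genes (11 and 10, chr1:191182359-191182550). A stronger region, called in all 6 libraries, lay 0.267 kb from the Atf3 member. Its scaled pileups ran from 94.5 (DE replicate 1) to 167 (WT replicate 2). Cdh5, a cadherin of endothelium, was 1 of 20 non-haematopoietic genes (10 and 9, chr8:104131478-104131675), a list of which 5 genes had any WT region. No member lay within 10 kb of the 13 housekeeping genes, the 13 genes of erythroid cells and megakaryocytes, the 15 of T and NK cells, the 15 of B cells or the 10 of mast cells, basophils and eosinophils. With counts of 0 to 3 a list, no list is read as differing from all genes (2.36%, or 4.02% of those with some WT region). No test of lists was made.

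Most genes with a member had 1, namely 462 of 487. Gse1 and Msra had 3 each and 23 genes had 2, among them Bcr, Cdk5rap1, Chd9 and Creb3. The 3 regions at Gse1 had 14, 13 and 7 fragments in WT replicate 1 and 10, 7 and 6 in WT replicate 2, and the 3 in Msra, a methionine sulfoxide reductase, 17, 13 and 13 with 11, 9 and 8. The 2 near Creb3, both in the neighbouring Tln1 (talin), had 24 and 11 with 14 and 6. Members were otherwise scattered: the median distance from one to the next was 1034 kb, and 18 lay within 10 kb of another. By chromosome the share of WT regions that were members ranged from 1.17% on chromosome 19 (13 of 1111) to 2.89% on chromosome 18 (27 of 935; interval 1.99 to 4.17). Chromosome 2, which carries Zeb2, had 43 of 2419 (1.78%).

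Members were less often at gene ends than all WT regions, without a single direction at matched strength. A gene end here is either boundary of a gene, so gene starts are included. Within 1 kb of a gene end were 83 members (15.6%), inside genes 234 (44.1%) and between genes 214 (40.3%), beside 21.6%, 40.6% and 37.8% of all WT regions. The median distance to a gene start was 25.9 kb over the 504 members with a start in the table, beside 18.6 kb. Among regions with a lower scaled WT pileup under 8, 10.6% of members and 12.2% of the other WT regions were within 1 kb of a gene end. From 8 to 12 the shares were 17.7% and 16.1%, and from 12 to 16 they were 16.9% and 18.2%. In the thin bin from 16 to 24 they were 41.2% (7 of 17) and 21.3%. The median distance to a gene start was 33.1 kb in members and 26.4 kb in the other WT regions in the lowest of these bins, 26.5 and 23.0 kb in the next, 16.8 and 20.8 kb from 12 to 16, and 4.35 and 19.7 kb in the thin bin. Members were thus farther from starts in the 2 weakest bins and nearer in the 2 stronger ones.

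Variant peaks lay near many members, but the distances were taken for members only and no share over other regions stands beside them. The variant lists held 50221 to 169943 peaks each, so the counts are not read as a trait of the members. The nearest peak of any DC or DE library lay at a median of 1.48 kb from a member, within 200 bp of 61 members and within 1 kb of 212 (39.9%). By library the median was 1.92 kb in DC replicate 1, 5.92 kb in DC replicate 2, 5.32 kb in DE replicate 1 and 4.82 kb in DE replicate 2. Without a variant peak within 10 kb were 45 members, among them Cdh5 at 14.0 kb. A region called in both WT libraries lay within 10 kb of 288 members, whatever its strength. For 227 members such a region was called in all 6 libraries. These regions had a median scaled pileup of 38.4 in WT replicate 1, beside 34.3 over all regions called in all 6 libraries and 11.1 in the members.

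Regions beside members that were called in all 6 libraries could be tested, since the rule did not use their level. It did use where their peaks ended, because a variant peak that reached a member would have removed that member. The comparison is thus not free of the choice of members. There were 354 such regions within 10 kb of 227 members. The libraries are those that chose the members, and DC and DE are both set against the same WT libraries. With limma on log2 scaled pileup over 23027 regions, 0 passed at an adjusted p of 0.05 in DC and 0 in DE, near members or anywhere (0% of all regions in each direction). At an unadjusted p under 0.05, 10 of the 354 were higher and 16 lower in DC, beside 1132 and 714 of all regions. In DE 6 were higher and 12 lower, beside 706 and 432. The median log2 difference was -0.13 in DC near members, beside -0.02 over all regions, and -0.11 in DE, beside -0.00. In DC 63.0% and in DE 59.0% of the 354 were below 0, beside 51.8% and 50.4%. The median near members less that of all regions was -0.09 and -0.13 in DC and -0.10 and -0.10 in DE in batches 1 and 2, so the sign was the same in each batch. The DE value over both batches, -0.11, moved to -0.04 without DE replicate 2 and to -0.06 with a window of 50 kb, and it was -0.06 without WT replicate 2 with batch as a term. The DC value over both batches, also -0.11, moved to -0.06 with a window of 50 kb. No test was made of these medians.

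With the batch as a term in the same model, 5 of the 354 regions were higher (1.41%, beside 3.15% of all regions) and 7 lower (1.98%, beside 1.17%) in DC by limma at an adjusted p of 0.05. In DE 2 were higher and 2 lower, 0.565% each way, beside 1.13% and 0.274%. Without WT replicate 2 no region near a member passed in either variant. A region in Cd82, a tetraspanin gene, 4.02 kb from a member with 9 and 7 fragments, had scaled pileups in WT of 68.7 and 49.4. The DC libraries had 25.9 and 7.67 there, and the DE libraries 30.1 and 13.6. Both WT values were above all 4 variant values. The log2 difference was -2.05 ± 0.38 (SE, n = 2 per genotype; limma adjusted p = 0.000136) in DC and -1.53 ± 0.38 (adjusted p = 0.0154) in DE, and without the batch term the DC value did not pass (adjusted p = 0.336). Of the 6 fits that each left out 1 library, 4 passed in DC, and those without WT replicate 2 or DC replicate 2 did not (highest adjusted p = 0.108).

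At Uba7 the member described above lay 0.452 kb from a region (chr9:107982628-107983070) with scaled pileups of 89.9 and 70.4 in the WT libraries. The DC libraries had 50.0 and 18.4 there, and the DE libraries 59.4 and 31.7. The WT values were the highest 2 of the 6. The DC difference was -1.39 ± 0.31 (limma with batch, adjusted p = 0.00197), and it did not pass without WT replicate 2 or without DC replicate 2 (highest adjusted p = 0.332). Regions 66.3 kb from Atl2 (-1.54, adjusted p = 0.00264) and 43.4 kb from Mdm1 (-1.08, adjusted p = 0.0103) were lower in DC, and both lost the call without either WT or either DC library. A region in Bcr, a GTPase regulator known from the BCR-ABL fusion, was higher in DC (1.48 ± 0.37, limma with batch, adjusted p = 0.00719). Its scaled pileups were 19.2 and 15.8 in WT and 55.0 and 43.0 in DC, and the DE libraries, at 20.1 and 41.9, lay between. Without WT replicate 2 or DC replicate 1 it did not pass. Thus a site that was higher in DC stood 6.25 kb from a member that had no DC call.

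**Figure D5:**
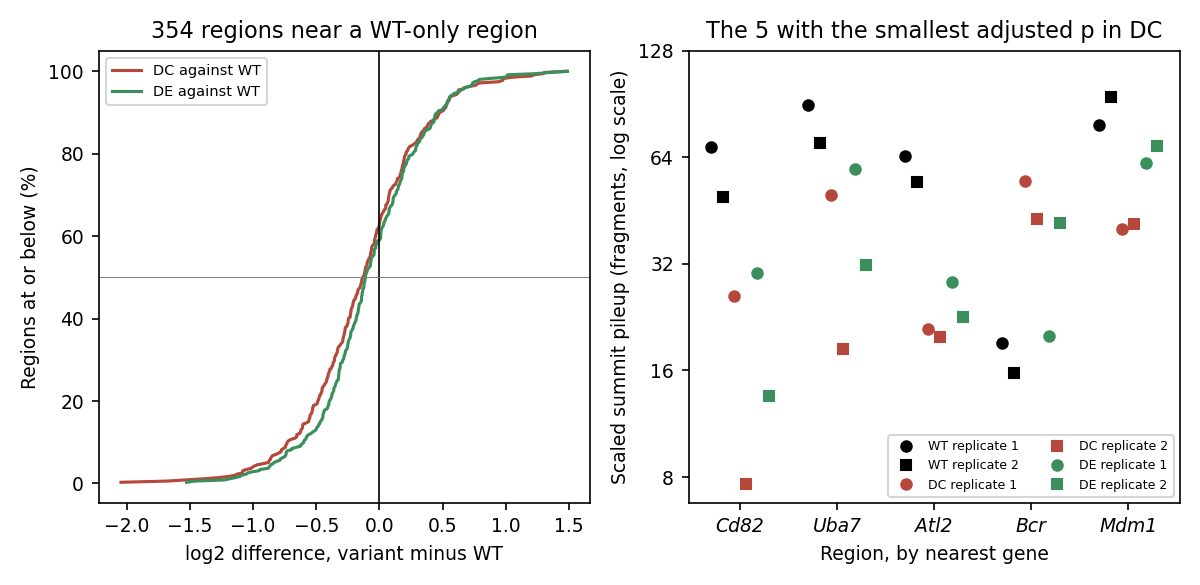
Left, cumulative percentage of the 354 regions called in all 6 libraries within 10 kb of a member, by log2 difference of scaled pileup from WT, in DC (red) and DE (green). Right, scaled summit pileup in fragments (log scale) in each of the 6 libraries for the 5 such regions with the smallest adjusted p in DC, circles for replicate 1 and squares for replicate 2. Both curves cross the line at 0 above 50%, and the WT points of Cd82 (68.7 and 49.4) lie above its 4 variant points.

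In DE the regions near members that passed with batch as a term were those in Foxk1, a forkhead factor (-1.47, adjusted p = 0.0111), and Cd82, which were lower, and those 24.8 kb from Nfe2l2, the factor of the oxidative stress response (1.35, adjusted p = 0.0211), and 9.26 kb from Nmur1, the neuromedin U receptor (1.49, adjusted p = 0.0252), which were higher. Near Nfe2l2 the scaled pileups were 18.2 and 17.9 in WT, while the DC libraries had 40.1 and 43.0 and the DE libraries 44.3 and 47.5. The WT values of that region did not overlap those of the variants, and it was also higher in DC (1.20, adjusted p = 0.0255). Each of the 4 lost its call in DE in at least 3 of the 6 fits without 1 library, always including the fit without WT replicate 2. Scaling by background moved the median of all regions to 0.84 in DC and 0.55 in DE, and with it no region near a member was lower at an adjusted p of 0.05 by limma. The named regions that were lower remained below 0 on that scale with batch as a term, at -1.19 (Cd82), -0.68 (Atl2), -0.53 (Uba7) and -0.22 (Mdm1) in DC and -0.97 (Cd82) and -0.91 (Foxk1) in DE, none of which passed.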

How the data were processed

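The members, the gene lists and the alternatives were chosen with earlier results of these data known. MACS2 2.2.9.1 and build mm10 are named in the submitters' processing notes, beside HOMER, SAMtools, Bowtie2 and Trimmomatic; other versions and the control used for calling are not given in the sources used here. The deposited lists, 1 per library at a q of 0.1, give the authors' fold over local background at the summit (a ratio), −log10 values of p and q, and a score of 10 times the −log10 q.

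Regions, calls and distances were computed with Python 3.11.15, numpy 2.4.6, pandas 2.3.3 and scipy 1.17.1. The whole pileup k and background λ at each summit were recovered from the fold, (k + 1)/(λ + 1), and the Poisson p, to 5% of a step or 0.01% of the −log10 p, for at least 99.998% of peaks in each list. Read totals are unknown. Pileups were scaled by the median over regions called in all 6 libraries, or, as an alternative, by the lowest background. Genes came from a RefSeq table of GRCm38.p6 (20661 autosomal protein-coding genes, without gene starts on chromosome 18), and 226 of 231 listed symbols matched. A region takes the name of the gene that contains it or has the nearest end, where an end is either boundary of a gene.

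Neighbouring regions were fitted with limma 3.58.1 in R 4.3.3 on log2 pileup (3 genotypes, trended variance, Benjamini-Hochberg over all regions), without and with batch. The fit without batch was tested on simulated data that held no batch shifts. The fit with batch, which gave all the calls near members, was not tested in that way. Fits that left out 1 library kept the same members, regions and scaling. They are thus not free of the library left out. The batch is given by the labels and pairs the libraries: across 23027 regions the batch deviations correlated with r = 0.55 (WT with DC), 0.41 (WT with DE) and 0.38 (DC with DE). Named members were the 15 with the highest lower WT pileup, the 10 with the highest smallest bound, up to 4 a list, those near Zeb2 and genes with several, and up to 5 neighbours and 5 regions just outside. No genome was given, so sequence was read only in promoter windows.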

Additional observations from a re-analysis of the deposited data

How the results depend on the processing

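The number of regions called only in WT was 531, and between 398 and 598 with peaks within 200 bp joined (598) or with a q of 0.05 (477) or 0.01 (398) in all lists. It fell to 344 with a q of 0.01 in the WT lists alone and to 319 when a variant peak within 1 kb removed a region. Of the 398 and 477 regions at stricter q, 344 and 467 overlapped a member. With peaks within 200 bp joined, 462 of the 598 did, so the similar count holds other regions as well. Leaving out 1 library gave 593 to 39406, the highest without WT replicate 2 and 13043 without WT replicate 1, where the rule asks for a single WT call, and 1282 without DC replicate 1. The count of members with a smallest bound over 1 was 521, and 336 with scaling by background. Regions only in WT in batch 1 were called in the WT library of batch 2 more often than the mean of its DC and DE libraries by 0.944 percentage points, and by 1.19 with a q of 0.01. With the batches exchanged the difference was -2.91, with 21.2% called in DC replicate 1 and 8.20% in DE replicate 1. Within 5 kb of a gene end lay 32.6% of members, and the listed genes with a member were 9 within 1 kb (1.59% of all genes) and 24 within 50 kb (5.22%). The C/EBP letters were in 0 of 31 promoters within 50 bp as well.

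With batch as a term (replicate block), the regions near members that passed were 12 in DC and 4 in DE in place of 0 and 0. Combined with the block, and chosen after seeing the data, a window of 50 kb gave 44 and 8, the regions called in the 4 libraries of a comparison 15 and 7, and scaling by background 5 in DC and 0 in DE. With the block, leaving out WT replicate 1 gave 11 in DC and 2 in DE, WT replicate 2 gave 0 and 0, DC replicate 1 gave 3 and 4, DC replicate 2 gave 2 and 4, DE replicate 1 gave 17 and 0, and DE replicate 2 gave 16 and 3, and without the block 0 in every such fit, with a lone library assumed to vary like the others. Over all settings run, those above included, 174 values kept their direction and side of the threshold or stayed within the spread or 1.5 times the count, 43 moved beyond that and 1 reversed. A further 45, for single named neighbours, passed where the fit without batch had not. Some of the 174 could not have changed. The median near members less that of all regions is the same by construction with batch as a term and with scaling by background. Named neighbours were also counted there when they again did not pass, so the tally is not a measure of robustness. The causes of these differences were not tested. A missing call is an upper limit: at the lowest background a call needed 4 to 7 fragments, and more where the local background was higher.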
